A study of Mus musculus with 8 samples.

Results

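The cytosolic ribosomal protein genes encode the proteins of the ribosome that translates nuclear-encoded messages. Members were the protein-coding RefSeq genes whose symbols start with Rpl (large subunit) or Rps (small subunit) and a digit, plus Rpsa, without the kinase genes Rps6k. Each had to be matched by 1 transcript interval of the deposited table, with the shared span making up 0.5 or more of their union. This gave 51 genes of 20280 named genes, 29 for the large subunit and 22 for the small subunit. RefSeq places 55 such genes on the chromosomes of the table (1 to 10, X, Y and M). Rpl34-ps1, Rps27rt, Rpl41 and Rps26 had no matching interval and were not analysed here.

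The cells were mouse embryonic stem cells of the E14tg2a line (background strain 129SV) that stably carried a cRAF-ErT2 cassette, a fusion of the kinase cRAF whose activity is switched on by 4-hydroxytamoxifen (4OHT) and which drives ERK signalling. They were compared after 2 h of 250 nM 4OHT and untreated (0 h), in clones A and B, with 1 H3K27me3 ChIP-seq library per clone and time. All cells, untreated ones included, carried the cassette, had been kept in LIF, serum and 2 µM Chir99021, an inhibitor of the kinase GSK3. For the last 24 h before treatment Chir99021 was replaced by 250 nM PD173074, which inhibits FGF receptors. Both clones come from 1 line, and no line without the cassette and no vehicle control is described. The series also lists 4 input libraries, which were not analysed here.

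H3K27me3 is trimethylation of lysine 27 of histone H3. It is placed by Polycomb repressive complex 2 and marks developmental genes that are held silent in stem cells, often at promoters rich in CpG. Ribosomal protein genes are among the most actively transcribed genes of growing cells. Their promoters are typically rich in CpG, many bind ETS-family factors, and their messages begin with a pyrimidine run, the terminal oligopyrimidine (TOP) tract, through which translation responds to growth signals.

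The promoter sequences below show what these genes carry at their starts, beside that of a marked neighbour. They run from 150 bases before to 30 bases after the RefSeq start (RefSeq, GRCm38.p6, gene strand). Capitals mark the ETS-type core CGGAAG on either strand and a pyrimidine run, meaning a C followed by at least 7 further pyrimidines that starts within 20 bases of the RefSeq start. Rps15 (chr10:80292281-80292460, + strand), a protein of the head of the small subunit, and Apc2 (chr10:80295806-80295985, + strand), a brain-enriched relative of the tumour suppressor Apc, are shown as the member and the marked gene that lie closest together. Rps6 (chr4:86857338-86857517, - strand), the small-subunit target of the S6 kinases, is shown as a member with both features. Rpl36a (chrX:134585504-134585683, + strand), of the large subunit, had the lowest H3K27me3 density. Rpl32l (chr10:20208289-20208468, + strand), named as a copy of the large-subunit gene Rpl32, had the highest.
Rps15: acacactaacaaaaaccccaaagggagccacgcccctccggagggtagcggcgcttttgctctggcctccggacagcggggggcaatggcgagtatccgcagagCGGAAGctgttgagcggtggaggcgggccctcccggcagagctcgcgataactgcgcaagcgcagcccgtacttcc
Apc2: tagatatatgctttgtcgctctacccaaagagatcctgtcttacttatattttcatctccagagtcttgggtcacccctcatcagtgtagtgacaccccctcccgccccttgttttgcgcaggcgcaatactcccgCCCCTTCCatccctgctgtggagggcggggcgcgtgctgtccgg
Rps6: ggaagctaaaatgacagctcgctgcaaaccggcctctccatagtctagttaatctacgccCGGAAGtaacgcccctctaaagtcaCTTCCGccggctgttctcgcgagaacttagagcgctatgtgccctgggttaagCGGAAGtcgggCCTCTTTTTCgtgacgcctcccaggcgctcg
Rpl36a: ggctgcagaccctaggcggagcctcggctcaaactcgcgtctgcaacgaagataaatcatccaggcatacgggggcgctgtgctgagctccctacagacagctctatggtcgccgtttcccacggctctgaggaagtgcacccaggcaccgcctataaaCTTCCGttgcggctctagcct
Rpl32l: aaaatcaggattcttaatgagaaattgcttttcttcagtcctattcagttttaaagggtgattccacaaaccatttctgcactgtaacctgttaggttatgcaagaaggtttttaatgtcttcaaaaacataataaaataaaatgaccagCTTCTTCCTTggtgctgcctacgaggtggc
Rps15, Rps6 and Rpl36a held 20, 23 and 20 CpG dinucleotides in the 300 bases around their starts, against 14 for Apc2. Rpl32l held 3, no ETS-type core and a run of 10 pyrimidines.

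Column totals ran from 70378127 to 92518605 counts per library, and they are not sequencing depths because overlapping intervals count a read more than once. Density is given as counts per kb of interval per 1000000 counts of the column total, introns included. The median named gene stood at 0.357 on this scale, and a gene was called marked at 4 times that level or more. For genes known as cell type markers, 8 pluripotency genes had a median density of 0.0981 (0.0822 to 0.559) with 0 marked. For 6 of 7 listed fibroblast genes the median was 0.778 (0.251 to 2.16) with 1 marked. These densities say nothing of expression and do not establish the cell type. Density includes background reads, since no input was subtracted. Fewer cells carrying the mark and less mark per cell cannot be told apart.

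The first question was how much H3K27me3 the ribosomal protein genes carried. They were poor in the mark. By mean density all 51 lay below the median named gene, Rpl32l at the margin, and 0 of 51 were marked, against 5.76% of all named genes and 5.42% of named coding genes. Their median density was 0.102 ± 0.0110 (SD of the list median over 4 libraries), which is 0.286 times the median gene. Of the 51 genes, 14 fell in the lowest 10% of all named genes, 44 in the lowest 20% and 49 in the lowest 25%. Both subunits stood alike, at a median density of 0.102 for the 29 large-subunit genes and 0.103 for the 22 small-subunit genes.

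Such levels rest on few reads. A member had between 6 and 219 counts in a library, the median member a mean of 25 counts over a median length of 3137 bp. Exact Poisson intervals (95%, counting error only) on the counts summed over 4 libraries held the list median for 31 of the 51 genes, lay above it for 9 and below it for 11. When the genes were ordered by density, 49 of the 50 pairs of neighbours had overlapping intervals. The middle 50% of members spanned densities of only 0.0887 to 0.112. Across the 51 genes, density in one library correlated with density in another at Spearman's rho of 0.406 to 0.560, a description of genes that share depth and interval length.

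**Figure D1:**
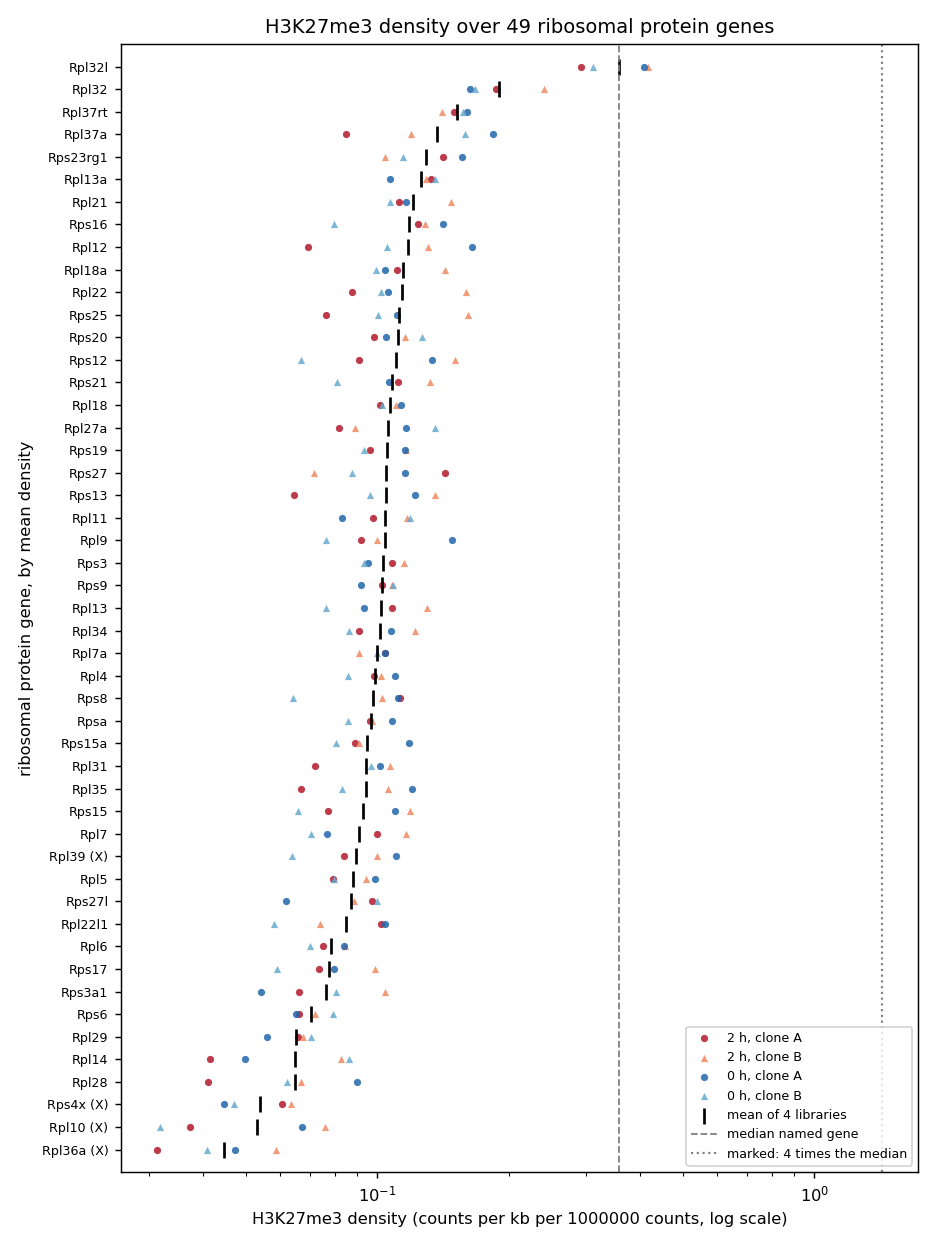
H3K27me3 density of 49 of the 51 ribosomal protein genes (rows, ordered by mean density) on a log axis in counts per kb per 1000000 counts. Points are single libraries and black ticks the mean of 4, with the dashed line at the median named gene (0.357) and the dotted line at 4 times that level. Rpl32l alone reaches the median gene, in clone B at 2 h and clone A at 0 h, and no point comes near the dotted line.

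Rpl32l had the highest density. It had 0.292 (clone A) and 0.417 (clone B) at 2 h, against 0.408 (clone A) and 0.312 (clone B) at 0 h, from 15 to 21 counts in an interval of 592 bp at chr10:20208439-20209030. The libraries of the 2 times overlapped, with 1 high and 1 low at each. Its mean of 0.357 ± 0.0645 (SD, n = 4) was 1.00 times the median gene, just below it, while the surrounding gene Map7, a microtubule-binding protein within whose span it lies, stood at 0.141. Rpl32, the gene it is named after, came next, at 0.187 (clone A) and 0.240 (clone B) at 2 h, against 0.163 (clone A) and 0.168 (clone B) at 0 h. Both 2 h libraries of Rpl32 were above both 0 h libraries. The mean of Rpl32, 0.189 ± 0.0355 (SD, n = 4), was 0.530 times the median gene.

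Copies of ribosomal protein genes included both the highest value and low ones. The 5 copies had densities from 0.0847 to 0.357 with a median of 0.129, and the 46 other members 0.0445 to 0.189 with a median of 0.102. Rpl37rt, a retrotransposed copy of Rpl37, had 0.150 (clone A) and 0.141 (clone B) at 2 h, against 0.161 (clone A) and 0.157 (clone B) at 0 h. Rps23rg1, a retroposed copy of Rps23, averaged 0.129 ± 0.0240 (SD, n = 4) over the longest interval of the set, 16779 bp. Rps27l, a p53-responsive relative of Rps27, averaged 0.0869 ± 0.0174, and Rpl22l1, the paralog of Rpl22, averaged 0.0847 ± 0.0225 (SD, n = 4 each). Rps23rg1 was added to the copies after its values were seen. Of 204 RefSeq pseudogenes named after ribosomal protein genes on these chromosomes, 5 had an interval, and these stood at 0.211 (Rps4l) to 1.29 (Rpl13-ps6) times the median gene. How the authors placed reads that match several near-identical copies is not given in the sources used here, so the values of copies and pseudogenes, and of their parents, are uncertain.

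The lowest densities belonged largely to X-linked genes. Rpl36a had 0.0314 (clone A) and 0.0586 (clone B) at 2 h, against 0.0472 (clone A) and 0.0409 (clone B) at 0 h, from 7 to 12 counts. Rpl10, which joins the large subunit late in its assembly, had 0.0373 (clone A) and 0.0760 (clone B) at 2 h, against 0.0674 (clone A) and 0.0318 (clone B) at 0 h. In both genes the 2 times overlapped. Rps4x, the X-linked form of a small-subunit protein, had 0.0607 (clone A) and 0.0634 (clone B) at 2 h, against 0.0447 (clone A) and 0.0470 (clone B) at 0 h, so that both 2 h libraries were higher. Rpl28 and Rpl14, autosomal genes of the large subunit, followed at 0.0649 ± 0.0200 and 0.0650 ± 0.0227 (SD, n = 4 each). Rpl39, which lines the exit tunnel of the large subunit, was the X-linked gene outside the lowest 5, at 0.0839 (clone A) and 0.10 (clone B) at 2 h, against 0.110 (clone A) and 0.0637 (clone B) at 0 h.

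The 4 X-linked members had a median density of 0.0535 and the 47 autosomal members 0.103. All named genes had medians of 0.176 on the X chromosome and 0.372 on autosomes. E14tg2a is a male line with a single X chromosome. Summed over members, X-linked density over autosomal density was 0.564 (clone A) and 0.627 (clone B) at 2 h, against 0.571 (clone A) and 0.468 (clone B) at 0 h. For the medians of all named genes the ratio was 0.462 and 0.461 at 2 h, against 0.472 and 0.473 at 0 h, in the same order of clones. The members' ratios rest on 45 to 74 X-linked counts per library, and copy number was not tested. Around Rpl36a the mark was uneven over short distances. Btk, a kinase of B cells chosen here after its value was seen, lies 2030 bp away at 1.16 times the median gene, against 0.125 times for Rpl36a, and Gla, a lysosomal enzyme 107 bp away on the other side, stood at 0.141 times.

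Of the members with the most counts, Rps23rg1 led with a mean of 177 counts per library, followed by Rpl37rt (91.8), Rps15a (90.8) and Rpl22 (90.3). Rps15a, of the small subunit, averaged 0.0947 ± 0.0164, Rpl22, which is needed for T cell development in mice, 0.114 ± 0.0316, and Rpl5, which with Rpl11 restrains Mdm2, 0.0880 ± 0.0101 (SD, n = 4 each). Density showed little relation to interval length across the 51 members (Pearson's r = -0.252, Spearman's rho = 0.0429).

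Other gene groups of protein synthesis stood at like levels. The median density was 0.0945 for 42 mitochondrial ribosomal protein genes with 0 marked, 0.0953 for 40 translation factor genes with 1 marked, and 0.0799 for 17 of 26 listed ribosome biogenesis genes with 0 marked. Of the ribosomal proteins whose symbols the rule leaves out, 4 of 6 were measured, with a median of 0.103. The members' highest value, 0.357, was below that of mitochondrial ribosomal protein genes (0.471) and of translation factor genes (1.85). At the other end of the scale, the 20 Hox genes measured, regulators of the body plan, had a median of 4.50 and all were marked. These medians are descriptions of lists that were not tested against each other.

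**Figure D2:**
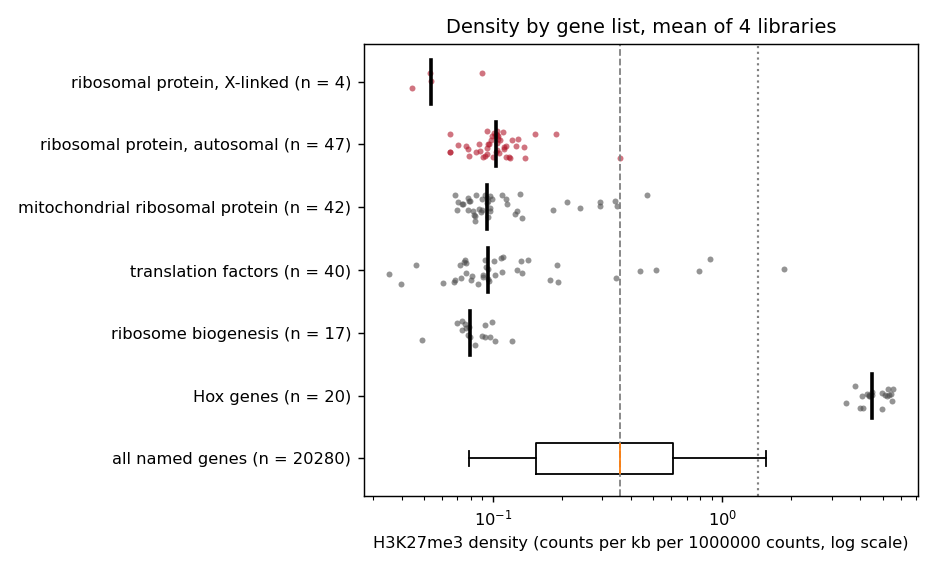
Mean H3K27me3 density over 4 libraries (log axis, counts per kb per 1000000 counts) for each gene of the lists named on the left; points are genes, spread vertically only for display, and black bars are list medians. In the box for all named genes the line is the median, the box the quartiles and the whiskers the 5th and 95th percentiles; dashed and dotted lines are the median named gene and 4 times its level. The ribosomal protein lists have medians of 0.0535 (X-linked) and 0.103 (autosomal), and the Hox genes 4.50.

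The next question was whether members next to marked genes shared the mark. Their levels were like those of the other members. Of the 51 members, 13 (25.5%) lay within 50 kb of a marked gene, against 15.2% of all named genes. Their median density was 0.103, against 0.101 for the 38 members farther away. In each of the 13 pairs the marked neighbour was 13.1 to 29.6 times denser than the ribosomal protein gene. The neighbours below were chosen after values were seen, since marked genes were chosen by density.

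Rps15 and Apc2 were separated by 1844 bp, with densities of 0.0928 for Rps15 and 1.56 for Apc2, a ratio of 16.8. Rps3, which lies at the entry channel for messenger RNA, stood at 0.103, and Klhl35, a kelch-family gene 3874 bp away, at 1.96. Rps19, mutated in Diamond-Blackfan anaemia in humans, stood at 0.105, and Dmrtc2, a DMRT-family gene 6996 bp away, at 1.76. Rpl21, of the large subunit, stood at 0.121, and Rasl11a, a Ras-like GTPase 8039 bp away, at 1.88. The widest gap in level was at Rpl28, at 0.0649, whose neighbour Il11, a cytokine 10108 bp away, stood at 1.92, a ratio of 29.6. On the X chromosome Rpl39 stood at 0.0895 and Sowahd, an ankyrin-repeat gene 32100 bp away, at 2.57. In all these pairs the drop in level took place within the gap between the intervals or inside them, which values per interval do not resolve.

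**Figure D3:**
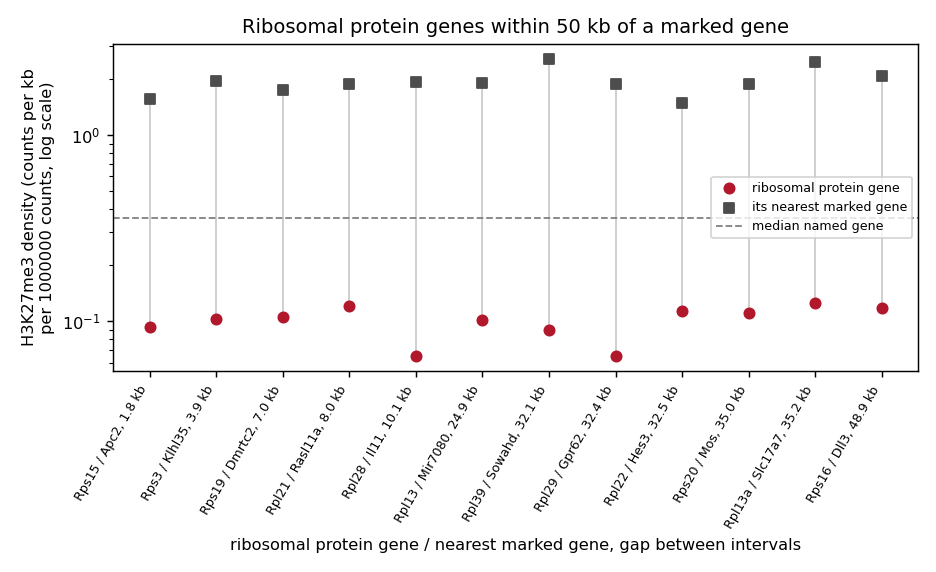
H3K27me3 density (log axis, counts per kb per 1000000 counts, mean of 4 libraries) of 12 of the 13 ribosomal protein genes within 50 kb of a marked gene (red circles) and of that marked gene (dark squares), joined by lines and ordered by the gap between intervals. The circles lie between 0.0649 and 0.126 and the squares between 1.49 and 2.57, with the dashed line at the median named gene.

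Promoters were compared because CpG-rich promoters are the ones at which Polycomb marks are known to form. RefSeq promoters of 300 bases, 250 before and 50 after the start, were matched for 41 of the 51 members. Of these, 32 (78.0%) were CpG-rich, meaning a GC content of at least 50% and an observed over expected CpG ratio of at least 0.6. CpG-rich promoters made up 27 of 36 for mitochondrial ribosomal protein genes. They made up 46.6% for marked genes, which include non-coding genes, against 36.0% for all named genes, coding or not. The share was 46.6% for all named coding genes and 33.5% for all 32851 RefSeq promoters. Coding genes other than members with a CpG-rich promoter had a median density of 0.150 with 5.57% marked, and those without one had 0.374 with 4.59% marked. Their median interval lengths were 26472 bp and 12519 bp. Density is averaged over the whole interval, so these values do not measure the mark at the promoter itself.

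The motif CGGAAG, searched on both strands over the 300 bases, was present in 26 of 41 members (63.4%), against 55.6% of mitochondrial ribosomal protein genes. It was present in 11.3% of marked genes, 17.9% of all named genes and 21.8% of named coding genes. Among CpG-rich coding genes other than members the share was 34.8%, and among all RefSeq promoters 16.9%. Rps6 held 3 such motifs and Rps15 held 1, whereas the Apc2 promoter held 0. The pyrimidine run described above, searched on the gene's strand alone, was present in 24 members (58.5%), against 9 of 36 mitochondrial ribosomal protein genes, 13.7% of marked genes, 14.5% of named coding genes and 14.5% of all RefSeq promoters. Apc2 also held such a run, of 8 bases. Shorter runs and runs starting farther from the RefSeq start were not counted. Lack of a match therefore does not show that a TOP tract is absent. The letters TATAAA on the gene's strand within 50 bases before the start were found in 1 member (2.44%), against 3.20% of named coding genes and 2.63% of all RefSeq promoters. The E-box CACGTG was found in 3 members (7.32%), against 8.15% of named coding genes and 7.15% of all RefSeq promoters. CGGAAG and the pyrimidine run can overlap on the strand that reads CTTCCG, and each was counted on its own. A match is a string of letters and no evidence of binding.

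**Figure D4:**
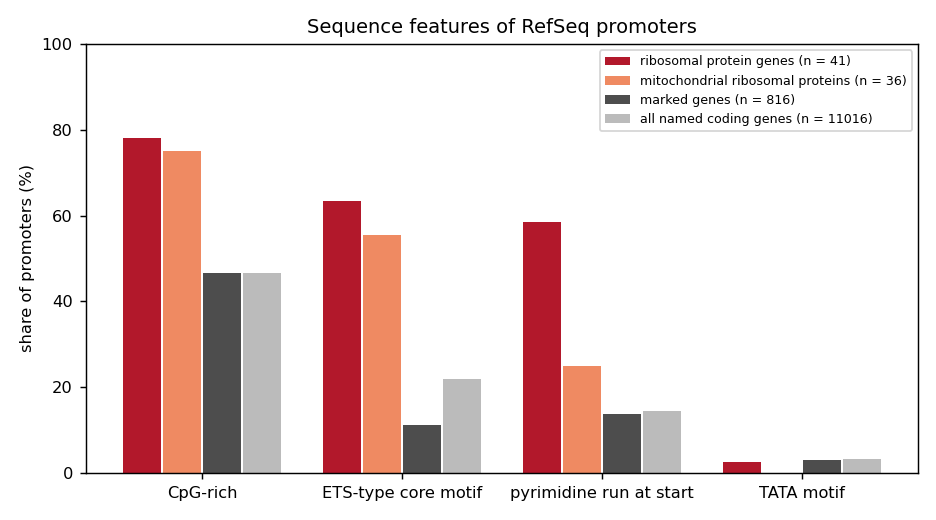
Share of RefSeq promoters (%) with each sequence feature, in 41 ribosomal protein genes, 36 mitochondrial ribosomal protein genes, 816 marked genes and 11016 named coding genes. The marked genes include non-coding genes. The ribosomal protein genes stand at 78.0% CpG-rich, 63.4% with the ETS-type core and 58.5% with a pyrimidine run at the start, and marked genes at 46.6%, 11.3% and 13.7%.

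The main comparison was 2 h of 4OHT against 0 h, which asks whether a short activation of ERK altered H3K27me3. No ribosomal protein gene passed the test. Of 51 members, 47 passed the filter on low counts and 4 did not (Rps21, Rps27, Rpl28 and Rpl36a). In edgeR's quasi-likelihood test with Benjamini-Hochberg adjustment over 50037 intervals, 0 members were called, and 0 of all intervals were called higher or lower (0%). At an unadjusted p under 0.05 the counts were 188 intervals (0.376%), among them 1 member. With the clone as a block, 2078 intervals reached that unadjusted threshold, again with 1 member among them, and 0 were called. DESeq2 called 0 intervals and found 2 at that unadjusted threshold. The log2 changes of the 47 members ran from -0.75 to 0.54 with a median of 0.06, against 0.01 for all intervals. Of the 47, 29 were positive. The median standard error of 0.29 is large beside these values.

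The smallest p belonged to Rpl37a, a zinc-binding protein of the large subunit. It had 20 (clone A) and 26 (clone B) counts at 2 h, against 33 and 33 at 0 h, or densities of 0.0846 and 0.120 against 0.184 and 0.159. Both 2 h libraries were below both 0 h libraries. The log2 change was -0.75 (SE 0.29), with an adjusted p of 1.00 in edgeR. Rpl27a, of the large subunit, had densities of 0.0817 and 0.0889 at 2 h, against 0.116 and 0.136 at 0 h, and its log2 change was -0.57 (SE 0.26). For Rpl27a, too, the libraries of the 2 times did not overlap.

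In the other direction, Rpl7, of the large subunit, had densities of 0.0999 (clone A) and 0.116 (clone B) at 2 h, against 0.0770 and 0.0706 at 0 h. Its log2 change was 0.54 (SE 0.28). Rpl13, of the large subunit, had 0.108 and 0.130 at 2 h, against 0.0933 and 0.0765 at 0 h. Its log2 change was 0.49 (SE 0.29). Rpl32 had a log2 change of 0.36 (SE 0.22). The 2 h libraries of these 3 genes all lay above their 0 h libraries, and their adjusted p was 1.00 each. Densities at 2 h lay wholly above those at 0 h in 7 members (13.7%), against 10.7% of all 20280 named genes, and wholly below in 4 members (7.84%), against 8.67%. The members' shares were near those of all genes.

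The median near zero covered values of opposite sign in the clones. In clone A the median log2 change over 2 h was -0.14 and in clone B it was 0.27, each from 1 library per time and with no test. Of the 47 members, 25 were lower at 2 h in clone A and higher in clone B, 7 the reverse, 8 higher in both and 7 lower in both. For all 20001 named genes tested these counts were, in the same order, 4538, 5592, 4994 and 4877. For 5721 other named genes at or below the density of the second densest member they were 2491, 604, 1669 and 957. The first pattern was thus also the most frequent among other genes of low density. Summed over the 51 members, density at 2 h in clone A was 0.0957 (95% exact Poisson interval 0.0912 to 0.10), against 0.110 (0.105 to 0.116) at 0 h. In clone B it was 0.114 (0.109 to 0.119) at 2 h, against 0.0962 (0.0915 to 0.101) at 0 h. The intervals of the 2 times did not overlap in either clone, but they cover counting error only. The ratios of 2 h to 0 h were 0.870 in clone A and 1.19 in clone B.

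Other genes of low density had medians of the same signs and smaller size. Among 5721 other named genes at or below the density of the second densest member, clone A had a median log2 change of -0.05 and clone B one of 0.11, and the summed densities of all 5887 such genes, untested ones included, had ratios of 0.955 and 1.08. For mitochondrial ribosomal protein genes the medians were -0.05 in clone A and 0.08 in clone B. For translation factor genes they were -0.02 and 0.13, and for ribosome biogenesis genes -0.03 and 0.26. The part of differences in background between libraries in these values was not tested.

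**Figure D5:**
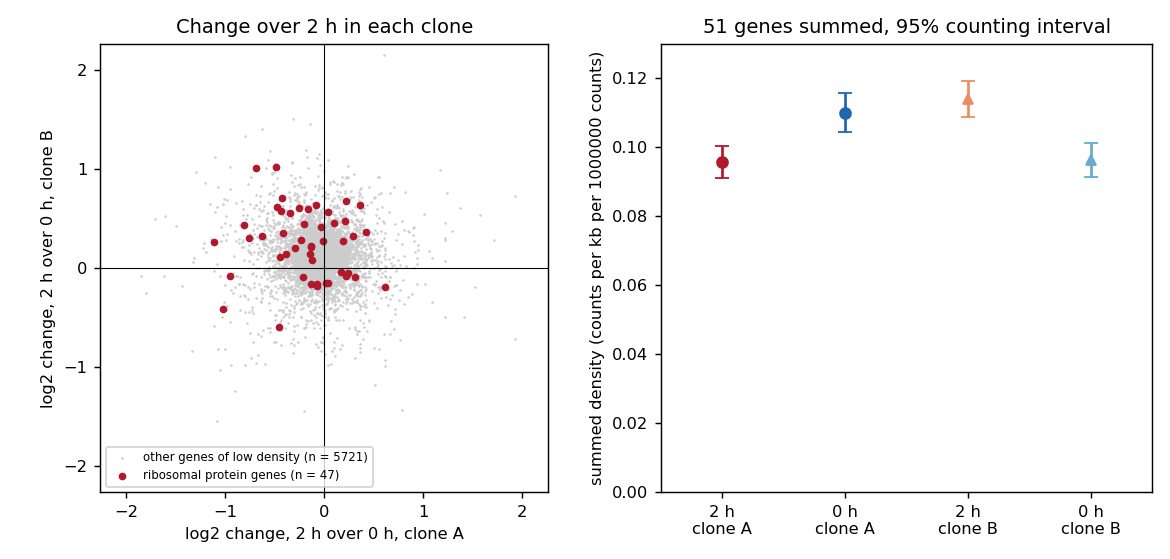
Left, log2 change over 2 h in clone A (horizontal) and clone B (vertical) for 47 ribosomal protein genes (red) and 5721 other named genes of low density (grey). Right, summed density of the 51 genes in each library with its 95% exact Poisson interval (counting error only). In clone A the 2 h value of 0.0957 lies below the 0 h value of 0.110, and in clone B the 2 h value of 0.114 lies above the 0 h value of 0.0962.

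Clone A was compared with clone B because both times of a clone share its cells. Each group was 1 clone, measured at 2 h and at 0 h, so the test compares these 2 clones only. Clone cannot be told apart from anything else that the libraries of a clone share. Few members were called different between the clones, as were few intervals with low counts, although many of all intervals were called. Rps23rg1, the retroposed copy of Rps23, was higher in clone A. In edgeR's quasi-likelihood test with Benjamini-Hochberg adjustment, 8633 of 50037 intervals (17.3%) stood higher in clone A and 5132 (10.3%) stood lower, or 27.5% in either direction. Of the 47 members tested, 1 was called higher and 1 lower. With time as a block, 1 member was again called in each direction, against 16.9% of intervals higher and 9.91% lower. DESeq2 called 0 members (2 at an unadjusted p under 0.05), against 11.4% of intervals higher and 6.05% lower. Calls were fewer among intervals with few counts, and the parts of count, interval length and level of the mark in this were not tested. Among 3989 intervals with a mean count under 50, where most members lie, 1.53% were called higher and 4.14% lower, 5.67% in all, and among the 46048 others 29.4% were called in either direction. The members' median log2 difference was -0.07, and its sign was not stable: it was 0.07 without the 2 h library of clone A, 0.10 without the 2 h library of clone B and 0.05 at a mean count of at least 50. By time it was -0.20 at 2 h and 0.19 at 0 h.

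Rps23rg1 had 219 counts at 2 h and 185 at 0 h in clone A, against 149 at 2 h and 156 at 0 h in clone B. Both clone A libraries were above both clone B libraries, with a log2 difference of 0.46 (SE 0.14, adjusted p = 0.00608). DESeq2 did not call Rps23rg1 (adjusted p = 0.0835), and without the 0 h library of clone A or the 2 h library of clone B its adjusted p was 0.0867 or 0.125.

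A further 3 members had an unadjusted p under 0.05, Rpl22, Rpl14 and Rps3a1, all lower in clone A with adjusted p of 0.0620, 0.0722 and 0.127. Densities in clone A lay wholly above those in clone B in 5 members (9.80%), against 28% of all 20280 named genes, and wholly below in 8 members (15.7%), against 32%. These shares were below those of all genes, whose counts were larger: the median named gene had a mean of 360 counts, against 25 for the members.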

How the data were processed

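The table deposited by the authors gives raw read counts over transcript intervals, introns included, in columns named for the 4 H3K27me3 libraries, per the file headers. The submitters' processing notes name the aligner Bowtie2, bedtools and mm10 as the genome build. No source used here gives their versions, any filter or the treatment of reads with several matches. A further 12 per-library columns and 4 mean columns were not used. The table holds 50398 intervals.

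Each interval took the name of the RefSeq gene (GRCm38.p6) it overlapped best, at 0.5 of the union or more, which named 44005 intervals and 20280 genes, each then represented by its best interval. Of the 51 members, 33 matched 1 interval and 18 matched 2 or 3, and the intervals of 44 overlapped no other named gene. Tests used edgeR 4.0.16 (quasi-likelihood, TMM, filterByExpr) over all 50037 intervals left, Benjamini-Hochberg adjusted and read at 0.05, in R 4.3.3. SE is the standard error of a log2 change, computed as the size of the change over the square root of its quasi-likelihood F statistic. Changes within a clone are differences of log2 counts per 1000000 with TMM factors and a prior count of 2. Poisson intervals came from SciPy 1.17.1. The alternatives tried were DESeq2 1.42.0, other scalings, other filters on low counts, 1 interval per gene, a replicate block, and leaving out each library.

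The members and lists were chosen with earlier results of these data known. Named members were those at or above the median gene density (none was), the 5 lowest, those called or else the 3 per direction with the smallest p and 1 direction in both clones, X-linked genes, copies by symbol ending, and the 3 per subunit of highest mean count. The values of 2 members that this rule names are not reported here; they stay in the counts and list values. Per the labels, clones A and B each gave a library at 2 h and at 0 h, so the libraries are paired by clone. The main fit of 2 h against 0 h had no term for the clone, and the fit with the clone as a block was an alternative. Libraries of a clone deviated together (r = 0.530 across 50037 intervals, which are not independent, and 0.0504 across the 47 members tested). Each group holds 2 libraries, and p-values reflect only how much these libraries vary, which may be technical. Reads carry no molecular identifiers, so intervals cover counting error only.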

Additional observations from a re-analysis of the deposited data

Results flagged for a closer look

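In each of the following lists the change over 2 h of 4OHT had opposite signs in the clones, and the difference was not tested because each clone has 1 library per time. The median log2 change in clone A minus that in clone B was -0.41 for the 51 ribosomal protein genes (47 tested), -0.40 for the large subunit and -0.44 for the small subunit. It was -0.13 for mitochondrial ribosomal protein genes, -0.15 for translation factor genes and -0.29 for ribosome biogenesis genes. The ratio of summed density at 2 h to 0 h over the ribosomal protein genes stood at 0.870 for clone A and at 1.19 for clone B, which differ by -0.32. These values share the same 4 libraries.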

How the results depend on the processing

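The low density of the ribosomal protein genes held under each setting tried. Leaving out 1 library gave list medians of 0.0966 to 0.103. Keeping members with a mean count of at least 50 gave a higher median, 0.122 against 0.102. It rests on 6 members, the copies Rps23rg1 and Rpl37rt among them. For 2 h against 0 h, 0 members were called under every setting, and 0 to 1 intervals were called lower when 1 library was left out. The members' median log2 change ran from -0.10 to 0.17 when 1 library was left out, changing sign. With the replicate block (clone), 0 intervals were called and the members' median was 0.07; the paired fit changed no call. The members' median log2 difference between clones A and B ran from -0.15 to 0.10 when 1 library was left out and was 0.05 at a mean count of at least 50, against -0.07. DESeq2 called 5731 intervals higher and 3049 lower in clone A, 1 interval per gene gave 3195 higher and 2120 lower out of fewer tested, and leaving out 1 library gave 5252 to 8087 higher and 3414 to 4398 lower. Members called higher in clone A numbered 0 with DESeq2 and 0 to 1 with 1 library left out. Members called lower numbered 3 at an adjusted p under 0.1, 0 to 2 with 1 library left out, 0 with DESeq2, and 0 at a mean count of at least 50, where only 6 members were tested. Over the alternatives with a value, the adjusted p ran from 0.00482 to 0.125 for Rps23rg1 (called in 9 of 12). These 12 include the main fit read at an adjusted p under 0.1, whose call was fixed by the main result. No called value changed sign. Low counts limit single members.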
